A study of Mus musculus with 6 samples.

Results

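The genes described here are the olfactory receptor genes Olfr1417 to Olfr1505 of the mouse, taken as every row of the deposited count table whose symbol is Olfr with a number in that range, with or without a pseudogene suffix. The rule found 64 genes among 1191 olfactory receptor genes and 31319 genes in all. All 64 lie on chromosome 19 (GRCm38, chr19:11826803-13921866). The annotation lists 60 of them as protein coding and 4 under a pseudogene type, and 6 carry a pseudogene suffix in their name. It holds 87 genes in this number range, of which 22 have no row under that name or ID here, 2 of those protein coding. One more, Olfr1452-ps1, has a row under another name and is outside the rule.

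Polyadenylated RNA was measured in 6 libraries from the main olfactory epithelium, the lining of the nose that holds the odour-sensing neurons. The mice were male, on a C57BL/6 background and 5 months old in both groups. In the KD group (libraries KD-1, KD-2 and KD-3) 2 microRNAs of the miR-200 family, miR-200b and miR-200a, were knocked down, and the NC group (NC-1, NC-2 and NC-3) served as its control. How the knockdown was made, what the NC mice received and whether each library came from 1 animal is not stated in the labels. The p-values measure only the spread between these libraries. The tissue was sequenced whole, and fewer sensory neurons cannot be told apart from less receptor RNA per neuron.

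Olfactory receptors are odorant-binding proteins of the G protein-coupled receptor family, carried by the cilia of olfactory sensory neurons. Each mature neuron is known to express a single receptor gene from a single allele, so that the level of a receptor in whole epithelium largely tracks how many neurons chose it and how many neurons there are. Receptor genes lie in clusters, and close neighbours in a cluster are often recent duplicates with similar coding sequences. Class II receptors, to which the chromosome 19 genes belong, are scattered over many clusters, whereas class I receptors sit together on chromosome 7. The miR-200 family is abundant in olfactory epithelium and is known for a part in the differentiation of olfactory neurons.

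The knocked-down microRNAs are shown because their seeds define the comparison. The mature sequences are those of RefSeq for GRCm38.p6, on the minus strand of chromosome 4, with the seed (bases 2 to 8) in capitals. They come from chr4:156054911-156054932 for miR-200a and chr4:156055685-156055706 for miR-200b. The seeds differ, and each was searched for on its own.
mmu-miR-200a-3p: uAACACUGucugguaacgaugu
mmu-miR-200b-3p: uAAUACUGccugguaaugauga

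The poly(A) libraries do not measure mature microRNAs, but the table has rows for the precursor genes. Mir200a had 200, 87 and 84 counts in the controls (libraries are always named in the order of their numbers) and 54, 3 and 52 under knockdown. Mir200b had 76, 54 and 47 counts in the controls and 10, 0 and 28 under knockdown. Both precursors were lower in every KD library than in every NC library, with log2 fold changes (KD over NC, as all below) of -1.76 ± 0.88 (SE) for Mir200a and -2.19 ± 0.995 for Mir200b. Neither passed edgeR's quasi-likelihood test after Benjamini-Hochberg adjustment over all genes (adjusted p = 0.309 and 0.289).

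A match to either 7-base seed, CAGTGTT for miR-200a or CAGTATT for miR-200b, was present in the annotated 3′ UTR of 14 of 58 members with such a UTR (24.1%). The share among 897 other class II receptors was 30.1%, with a median UTR of 1684 bases against 1294 in the members. The 14 members with a match had a median log2 fold change of -1.41, and 30 tested members without one had -1.62. In the other class II receptors the medians were -1.77 with a match and -1.63 without.

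The members resemble each other in their coding sequences, which bears on every count below. Of 62 members with an annotated coding sequence, 921 to 1077 bases long (median 942), 59 had another member as their closest receptor over at least 80% of the length. The identity to the closest receptor ran from 67.0% to 98.7%, with a median of 89.2%. At 95% or more, 23 members had a near-identical partner, in 12 pairs of members and in 2 pairs with a receptor outside the rule (Olfr1432 with Olfr1555-ps1, 98.5%, and Olfr1431 with Olfr235, 96.6%). Reads of such genes may have been split or lost between copies, and their counts are uncertain in that respect. The closest pairs are Olfr1417 with Olfr1418 (98.7%) and Olfr1502 with Olfr1505 (97.5%).

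To show how little separates them, the 70 bases around the first codon are printed for both pairs, from RefSeq's GRCm38.p6 table. Each stretch has 20 bases before the annotated start of the coding sequence, and capitals mark bases that differ within the pair. Olfr1417 and Olfr1418 (minus strand, chr19:11828975-11829044 and chr19:11855902-11855971) differ at 1 base, and Olfr1502 and Olfr1505 (plus strand, chr19:13861775-13861844 and chr19:13919002-13919071) at 3 bases.
Olfr1417: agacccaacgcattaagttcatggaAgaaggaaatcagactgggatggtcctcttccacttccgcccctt
Olfr1418: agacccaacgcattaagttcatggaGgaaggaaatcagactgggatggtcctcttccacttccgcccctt
Olfr1502: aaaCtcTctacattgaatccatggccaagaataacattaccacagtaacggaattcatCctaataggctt
Olfr1505: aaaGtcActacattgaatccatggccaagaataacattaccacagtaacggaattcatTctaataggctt

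Promoters of olfactory receptors are known for binding sites of the LIM-homeodomain factor Lhx2 (TAATTA or TAATGA) and of Ebf factors (CCCNNGGG). The RefSeq promoter table, 300 bases per window, matched 54 members. In only 8 of them did the window hold the outermost start that GENCODE annotates. Olfr1417, Olfr1418 and Olfr1505 are not among these. The last 70 bases of their windows, printed above, have 20 bases before the coding start, so these windows surround the coding start. Where the rest lie was not examined. Searched on both strands, with TAATTA reading the same on either, 3 of these 8 windows held TAATTA (37.5%), 3 held TAATGA (37.5%), 1 held CCCNNGGG (12.5%) and 1 held the TATA box TATAAA (12.5%). The same shares over 160 windows of other receptors with their start inside were 20.6%, 36.3%, 11.3% and 35.6%, and over all 32851 windows listed they were 5.29%, 9.78%, 13.7% and 13.6%. With 8 windows these shares are a description only. In Olfr1502, which holds the TATAAA match among the 8, the annotated start is also the first base of the coding sequence. Olfr1436, which holds a TAATTA match, has only 948 annotated exon bases, within the 921 to 1077 bases of member coding sequences. Where its coding sequence starts was not examined.

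The bases upstream of the annotated start are printed for Olfr1434, Olfr1437 and Olfr1477, the expressed members with a homeodomain-type match there. Capitals mark TAATTA, or TAATGA read on the other strand (TCATTA). They lie at chr19:12279604-12279853 (plus strand), chr19:12325102-12325316 (minus strand) and chr19:13500296-13500545 (plus strand). Olfr1434 and Olfr1437 are also close in their coding sequences.
Olfr1434: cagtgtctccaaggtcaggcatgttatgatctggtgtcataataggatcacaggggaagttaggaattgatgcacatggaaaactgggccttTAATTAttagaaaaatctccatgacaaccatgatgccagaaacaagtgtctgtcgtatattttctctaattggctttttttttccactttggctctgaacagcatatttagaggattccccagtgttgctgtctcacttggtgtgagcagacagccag
Olfr1437: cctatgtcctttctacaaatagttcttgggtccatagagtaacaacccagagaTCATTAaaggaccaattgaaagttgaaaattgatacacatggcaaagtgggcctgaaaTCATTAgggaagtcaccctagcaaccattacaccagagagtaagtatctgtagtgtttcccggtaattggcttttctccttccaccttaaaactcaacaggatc
Olfr1477: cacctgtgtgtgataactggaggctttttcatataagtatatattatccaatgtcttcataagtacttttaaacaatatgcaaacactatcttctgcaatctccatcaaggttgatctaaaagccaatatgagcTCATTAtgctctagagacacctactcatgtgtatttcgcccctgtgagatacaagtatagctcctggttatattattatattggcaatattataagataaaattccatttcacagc

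Total counts per library ran from 15704791 to 17618540. KD-2 stood apart from the other 5 libraries in the summed markers of mature and of immature sensory neurons. The summed level of 8 markers of mature olfactory sensory neurons (Omp, Cnga2, Adcy3, Gnal, Stoml3, Rtp1, Ano2 and Gng13) was 3270, 70.5 and 4041 CPM under knockdown (counts per 1000000, scaled by TMM factors) and 10935, 8202 and 6943 CPM in the controls. All 8 markers had fitted changes below 0, and none was at 0 counts in any library. Omp, the olfactory marker protein of mature neurons, had 24302, 149 and 33430 counts under knockdown against 69388, 66437 and 61926. Summed horizontal basal cell markers ran the other way, from 628 to 994 CPM in KD and from 179 to 482 in NC, as did respiratory ciliated cell markers (649 to 826 against 343 to 593). Plasma and B cell markers overlapped between groups (4704 to 8188 in KD and 1342 to 6100 in NC), and so did sustentacular markers (4326 to 6285 and 5800 to 6449) and globose basal cell markers (36.3 to 52.3 and 33.4 to 37.7). Summed markers of immature sensory neurons were lower in KD (150 to 593 against 634 to 903 CPM). So were those of ensheathing glia (45.4 to 80.3 against 85.8 to 145) and of olfactory bulb neurons (14.2 to 71.4 against 114 to 188). Fitted changes were below 0 in all 6 immature neuron and all 4 glia markers, but in 2 of 3 tested bulb markers. Among the globose basal cell markers 3 of 4 were below 0. Outside the mature neuron list only Neurod1, a globose basal cell marker, was at 0 counts in a library. The part of these marker levels in the receptor results was not tested beyond the ratios given below. Results that rest on KD-2 are given with and without it.

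The members together were lower in all 3 KD libraries than in any NC library. They held 1723, 9 and 2471 counts under knockdown against 5006, 4289 and 3295 in the controls. Scaled to library size this was 100.6, 0.689 and 136.2 CPM in KD and 308.8, 219.1 and 184.7 CPM in NC, a mean of 79.2 ± 70.3 (SD, n = 3) against 237.5 ± 64.04. KD-2 was near 0, while KD-1 and KD-3 lay below NC-3, the lowest of the controls. On the log2 scale the difference of the means was -3.46, with p = 0.1 in a two-sided exact permutation test, the smallest value that 3 libraries against 3 can give. Without KD-2 the difference was -0.99, so that library sets most of its size. The exact permutation p was then 0.2, the smallest value this test can give once a library is left out.

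Fewer members reached a minimum of 10 counts under knockdown. Members with at least 10 counts numbered 33, 0 and 41 under knockdown and 45, 48 and 45 in the controls. Members with no count at all numbered 17, 59 and 2 in KD and 4, 5 and 8 in NC. A count of 0 allows a level of up to 0.153 to 0.230 CPM (3 counts), depending on the library. KD-3 had fewer members at 0 than any other library, the controls included.

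Relative to the neurons' own RNA the groups overlapped. The members held 5.90% of all olfactory receptor counts in KD-1 (95% exact binomial interval 5.63 to 6.18), 0.635% in KD-2 (0.291 to 1.20) and 6.24% in KD-3 (6.00 to 6.48). In the controls the shares were 5.31% (5.17 to 5.46), 5.20% (5.05 to 5.36) and 6.47% (6.26 to 6.69). The mean difference of -1.40 percentage points had an exact permutation p of 0.8, and without KD-2 it turned to 0.41 points (exact permutation p = 0.6). Per 1000 Omp counts the members had 70.9, 60.4 and 73.9 counts in KD and 72.2, 64.6 and 53.2 in NC, a mean of 68.4 ± 7.09 (SD, n = 3) against 63.3 ± 9.53 (exact permutation p = 0.6). That difference of 5.10 was 0.055 without NC-3. With 5 other neuronal genes in place of Omp its sign turned (-5.00). The sizes are not comparable, because the reference counts differ. The ratio to Omp in KD-2 thus lay inside the NC range, from 9 member counts and 149 Omp counts. All other receptors together had 1131, 9450 and 1111 counts per 1000 Omp counts in KD against 1285, 1177 and 769 in NC, and were far above the rest in KD-2.

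**Figure D1:**
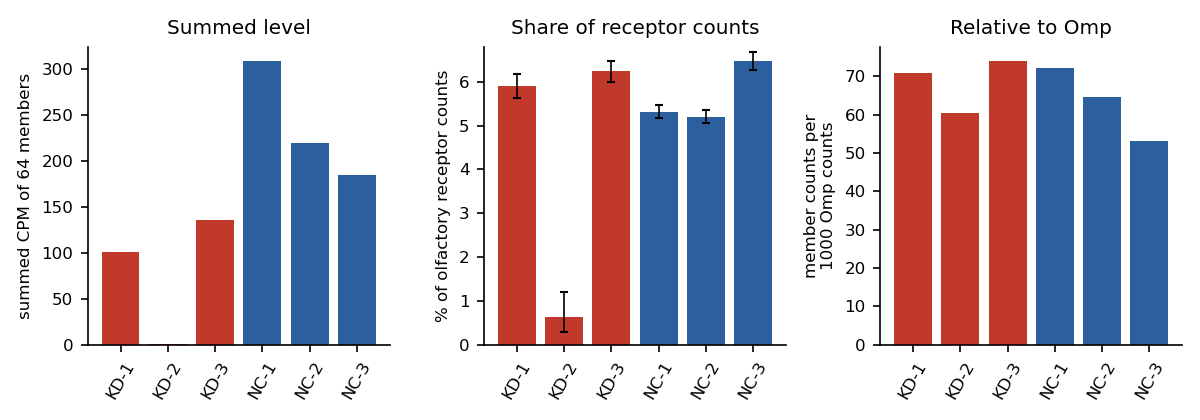
Bars give, for each of the 6 libraries (KD red, NC blue), the summed CPM of the 64 members, their percentage of all olfactory receptor counts with 95% exact binomial intervals, and their counts per 1000 Omp counts. The summed level separates the groups (at most 136.2 CPM in KD, at least 184.7 in NC), whereas the ratio to Omp ranges over 60.4 to 73.9 in KD and 53.2 to 72.2 in NC.

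The receptor counts that KD-2 did hold came mostly from a few genes outside the rule. Olfr1372-ps1 had 773 counts there, Olfr56 186, Olfr920 103, Olfr60 36 and Olfr558 25, which is 1123 of 1408 counts of other receptors. Each was named after its value was seen. Only 5 of 64 members (7.81%) had a count in KD-2, against 127 other receptors (11.3%). Olfr1420 had 5 counts, and Olfr1426, Olfr1487, Olfr1493-ps1 and Olfr1501 had 1 count each.

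Across single members the fitted change pointed the same way throughout. After the filter on low counts 44 members were tested, and all 44 had a log2 fold change below 0, against 49.4% of all 18444 tested genes. The median was -1.50, with quartiles of -2.21 and -1.01 and a range from -4.23 (Olfr1424) to -0.12 (Olfr1446). The median over all tested genes was 0.01. None of the 44 passed edgeR's test at an adjusted p of 0.05 (smallest 0.276), and no gene of the whole table did (0%). At an unadjusted p under 0.05, 5 members were lower (11.4%) and 0 higher, with 9.25% of all genes lower by that rule. DESeq2 called 3 members lower, Olfr1500, Olfr1424 and Olfr1442, and called 1.06% of all genes lower.

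In 20 of the 44 tested members (45.5%) every KD value lay below every NC value, while 18.6% of all tested genes met that rule. Without KD-2 the number of such members was again 20, with 20.3% of all genes. It could not differ, because KD-2 had the lowest KD value in every tested member. The fit without KD-2 left 47 members to test, with a median of -0.94 and 4 members above 0. There 17 members were lower at an unadjusted p under 0.05, beside 8.69% of all genes, and 0 passed adjustment. The authors' deposited table, which gives unadjusted p-values, has 17 members lower and 0 higher at p under 0.05 (7.87% of its genes are lower by that rule), and lists 58 members below 0 and 6 above.

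**Figure D2:**
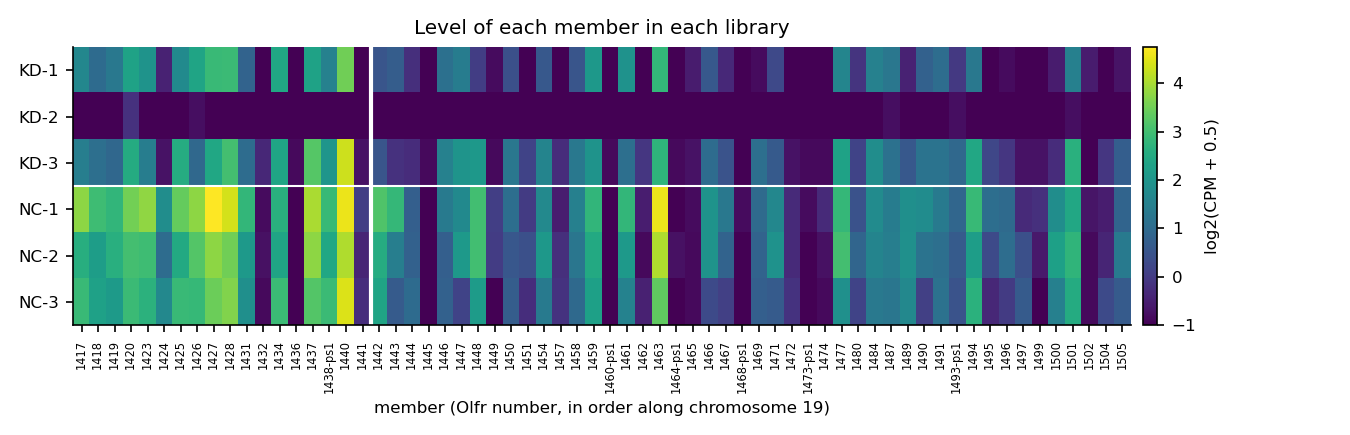
Each column is 1 of the 64 members in its order along chromosome 19 and each row a library. Colour gives log2(CPM + 0.5), the white vertical line parts the sub-clusters and the horizontal line parts KD from NC. KD-2 is dark in nearly every column, with counts in 5 members. Some columns, among them those of the 20 members below the filter on low counts, are dark or nearly so in the other libraries too.

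Among the members with the highest levels, fitted changes had standard errors of up to 1.25 on the log2 scale. Olfr1440, a receptor known to respond to muscone, had the highest mean level, with 186, 0 and 350 counts in KD and 378, 319 and 381 in NC. In CPM this was 10.9, 0 and 19.3 against 23.3, 16.3 and 21.4, and KD-3 lay inside the NC range. Its log2 fold change was -1.01 ± 1.25 (SE, edgeR adjusted p = 0.625) and -0.41 without KD-2. Olfr1440 alone held 10.8% of member counts in KD-1 and 14.2% in KD-3, beside 7.44% in NC-2 and 11.6% in NC-3. In NC-1 Olfr1427 led with 8.55%. The 5 leading members held 35.1% to 36.0% of member counts in KD-1 and KD-3, beside 31.8% to 35.4% in NC.

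Olfr1427 had 119, 0 and 88 counts in KD and 428, 257 and 186 in NC, with no overlap in CPM (0 to 6.95 against 10.4 to 26.4). Olfr1463 had 111, 0 and 112 counts against 384, 317 and 173, also without overlap. Their log2 fold changes were -2.07 ± 1.19 and -1.96 ± 1.18 (edgeR adjusted p = 0.346 and 0.362). Olfr1428 had 121, 0 and 139 counts against 327, 212 and 215, again with every KD value below the controls (-1.54 ± 1.18, edgeR adjusted p = 0.448). Per kilobase of exon the highest mean NC levels were those of Olfr1463 (7.14 CPM per kb), Olfr1428 (6.73) and Olfr1427 (4.98), while Olfr1440, with the longest exon sequence of these 4, stood at 2.67.

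Other well-expressed members were spread between clear separation and none. Olfr1426 had 79, 1 and 26 counts against 215, 171 and 120. Olfr1417 had 46, 0 and 41 against 212, 110 and 123, and Olfr1423 had 58, 0 and 40 against 217, 142 and 106. In these 3 genes no KD library reached the controls, and their log2 fold changes ran from -2.35 to -2.21. Olfr1420 had 77, 5 and 96 counts against 178, 150 and 127, also without overlap (-1.33 ± 0.80, edgeR adjusted p = 0.363). Olfr1437 (76, 0 and 161 against 256, 257 and 155) and Olfr1425 (49, 0 and 98 against 161, 101 and 124) overlapped with NC through KD-3. Olfr1434 and Olfr1501 overlapped as well, with 84, 0 and 86 counts against 94, 91 and 125 and with 40, 1 and 105 against 80, 123 and 95. Their log2 fold changes were -0.84 ± 1.14 and -0.998 ± 1.02, and -0.25 and -0.42 without KD-2.

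The smallest p-values belonged to members that were scarce in all KD libraries. Olfr1424 (ENSMUSG00000067528, chr19:12058624-12062682) had 4, 0 and 2 counts in KD against 49, 30 and 48 in NC. Olfr1500 (ENSMUSG00000054526, chr19:13826882-13830488) had 3, 0 and 6 against 49, 84 and 42. Olfr1442 (ENSMUSG00000044441, chr19:12670439-12677277) had 16, 0 and 17 against 137, 106 and 82. All 3 genes were far below the controls also in KD-1 and KD-3. Olfr1424 is near-identical to Olfr1425 (95.3%), and its counts are uncertain in that respect. The log2 fold changes were -4.23 ± 0.76 for Olfr1424, -4.12 ± 0.78 for Olfr1500 and -3.25 ± 0.94 for Olfr1442. In edgeR each had an adjusted p of 0.276, from unadjusted values of 0.00123, 0.00164 and 0.0128. DESeq2 gave adjusted p = 0.00033, 5.9e-05 and 0.0209. Without KD-2 the log2 fold changes were -3.74, -3.61 and -2.68 (edgeR unadjusted p = 0.000984, 0.000615 and 0.000792).

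Summed over each group's libraries and scaled to CPM totals, NC exceeded KD by a ratio of 19.1 for Olfr1424 (95% counting interval 8.52 to 53.0, from 6 and 127 counts). For Olfr1500 the ratio was 17.5 (9.02 to 39.0, from 9 and 175 counts). Olfr1497, with 0, 0 and 2 counts against 5, 16 and 19, was below the filter on low counts, and its ratio was 18.02 with an interval of 4.67 to 153.9. Olfr1497 and Olfr1500 have each other as closest receptor, at 75.9% identity, with only Olfr1499 between them among the members, which had 0, 0 and 2 counts against 6, 3 and 0. These intervals cover counting error only, not the spread between libraries.

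The members named for smallest p, here and above, were required to have groups that do not overlap, so their separation is no result. Olfr1443, whose groups overlap, was passed over at an edgeR unadjusted p of 0.0566, below that of Olfr1418 (0.0628). Olfr1444 had 6, 0 and 6 counts against 19, 24 and 27 (-2.42 ± 0.75), and Olfr1489 had 4, 0 and 18 against 51, 63 and 48 (-2.80 ± 0.95). Olfr1418 had 26, 0 and 30 against 118, 80 and 79, its near-identical partner Olfr1417 having been given above. Olfr1431 (22, 0 and 28 against 106, 73 and 56) and Olfr1419 (34, 0 and 25 against 104, 112 and 69) were likewise low in all 3 KD libraries. Their log2 fold changes were -2.28 ± 1.01, -2.21 ± 1.002 and -2.22 ± 1.02. For these 5 genes edgeR's adjusted p ranged from 0.276 to 0.290.

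**Figure D3:**
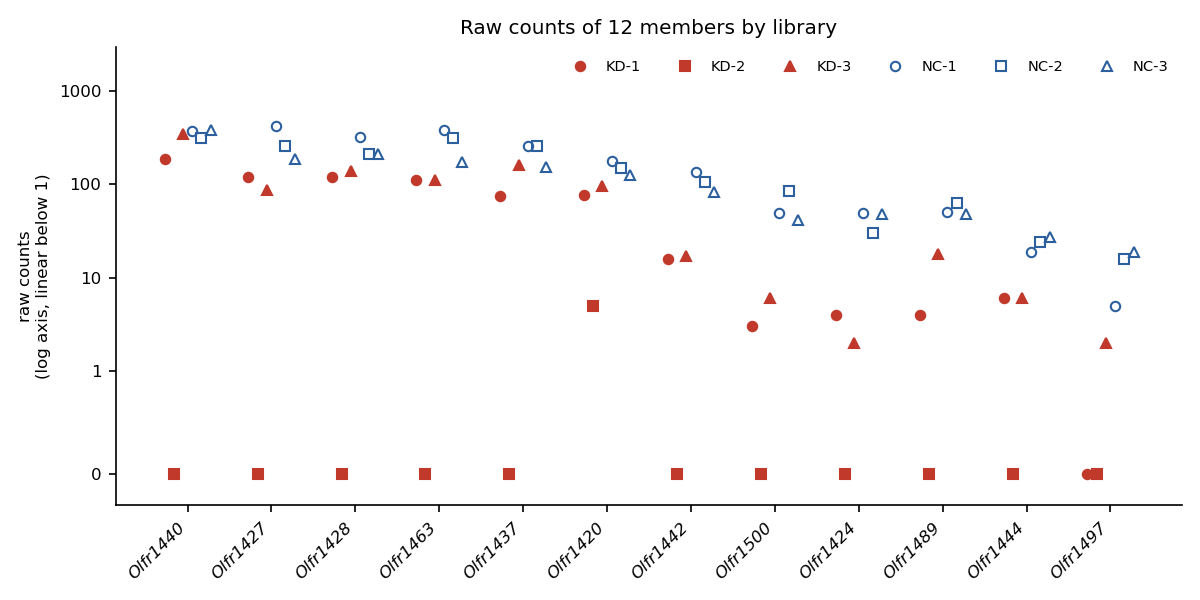
Raw counts of 12 members in the 6 libraries, on an axis that is logarithmic above 1 and linear below (KD filled red, NC open blue, marker shape gives the library number). KD-2 lies at 0 for 11 of the 12 genes, KD-3 lies inside the NC range for Olfr1440 (350 against 319 to 381), and KD-1 and KD-3 lie far below NC for Olfr1500 (3 and 6 against 42 to 84).

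Members differed in how much of their control level KD-1 and KD-3 kept. The mean CPM of these libraries as a percentage of the NC mean was 7.12% for Olfr1424, 7.85% for Olfr1500 and 15.2% for Olfr1442, and the median over the 44 tested members was 52.2%. It was under 25% in 5 members, from 25% to 50% in 15, from 50% to 75% in 14 and 75% or more in 10. The highest value, 135.3%, was that of Olfr1446 (29, 0 and 43 counts against 34, 23 and 22). Olfr1447 (37, 0 and 62 against 46, 73 and 11), Olfr1450 (14, 0 and 35 against 26, 19 and 20) and Olfr1484 (41, 0 and 55 against 47, 49 and 36) were also at or over the control mean, and these are the 4 members above 0 in the fit without KD-2. Among the other class II receptors the median was 45.5%, with 21.3% of genes under 25% and 17.0% at 75% or more, where the members had 11.4% and 22.7%. Olfr1446 and Olfr1447 are near-identical in coding sequence (95.6%), as are Olfr1484 and Olfr1477 (96.5%), and their counts are uncertain in that respect.

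The median change of the members was set against that of the other class II receptors. Of 676 other class II receptors tested, 666 were below 0. Their median change was -1.66 on the log2 scale (-1.17 without KD-2), and 55.3% had all KD values below all NC values, against 45.5% of the members. At an unadjusted p under 0.05, 25.15% of them were lower, against 11.4% of the members, and DESeq2 called 66 of the 676 and 3 of the 44 members lower. These shares were not tested against each other. In each library the median over tested members of log2 CPM minus the NC mean was set against the same median over other class II receptors. The difference was -0.02, -0.18 and 0.32 in KD and -0.09, -0.10 and 0.13 in NC, with a mean of 0.04 ± 0.26 (SD, n = 3) against -0.02 ± 0.13 (exact permutation p = 0.8), a difference smaller than the spread between libraries. In KD-2, where 59 members and 1000 other receptors had 0 counts, the value mainly follows the NC levels. Without KD-2 the groups differed by 0.17 (exact permutation p = 0.4). The class I receptors had a median of -5.31 in 40 tested genes, or -4.26 with genes of 3 or fewer counts in a group set at that floor. The 177 tested receptors Olfr987 to Olfr1318, another set of class II genes, had a median of -1.90.

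Position along chromosome 19 parted the members in 2 sub-clusters with a gap of 246.9 kb (a gap above 200 kb was the rule). The first holds 18 members, Olfr1417 to Olfr1441 (chr19:11826803-12423569), and the second 46 members, Olfr1442 to Olfr1505 (chr19:12670439-13921866). In the first, 15 members were tested, with a median log2 fold change of -2.07, and 11 had all KD values below all NC values. In the second, 29 were tested, with a median of -1.30, and 9 met that rule, which 18.6% of all tested genes met. Without KD-2 the medians were -1.47 and -0.77. The difference between the medians of the sub-clusters, taken in each library after subtraction of the NC mean, was -0.22, -1.52 and -0.99 in KD and 0.19, -0.34 and 0.13 in NC. This comparison was chosen after the medians were seen, and the groups overlapped (-0.91 ± 0.65 against -0.004 ± 0.29, SD, n = 3, exact permutation p = 0.2). In KD-2, where 59 members had 0 counts, the value mainly follows the NC levels. In summed counts the first sub-cluster held 59.3%, 66.7% (6 of 9 counts) and 51.8% of member counts in KD and 59.2%, 51.5% and 62.2% in NC (exact permutation p = 0.7), and the summed level in KD-1 and KD-3 was 47.6% of NC in the first and 52.9% in the second.

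Non-receptor genes inside the region had fitted changes on either side of 0. Of 10 protein-coding non-receptor genes between the first and the last member 7 were tested, with a median log2 fold change of 0.07, 3 below 0 and 4 above. Patl1, a factor of mRNA decapping, had 784, 594 and 863 counts in KD against 893, 1025 and 781 in NC (-0.12 ± 0.13). Osbp, the oxysterol-binding protein, was at -0.33 ± 0.22, Zfp91 at -0.30 ± 0.17 and Dtx4 at 0.07 ± 0.13. Mpeg1, the macrophage perforin, was the gene with all KD values above NC, with 3759, 2670 and 3292 counts against 414, 1948 and 2029 (1.34 ± 0.53, edgeR adjusted p = 0.276). Fam111a and Lpxn had 0.70 ± 0.38 and 0.70 ± 0.37. The receptors in the region that the number rule leaves out included Olfr235 (159, 0 and 84 counts against 253, 213 and 132) and Olfr76 (44, 0 and 42 against 147, 73 and 62), while Olfr1555-ps1 had 12, 0 and 21 against 13, 5 and 8.

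**Figure D4:**
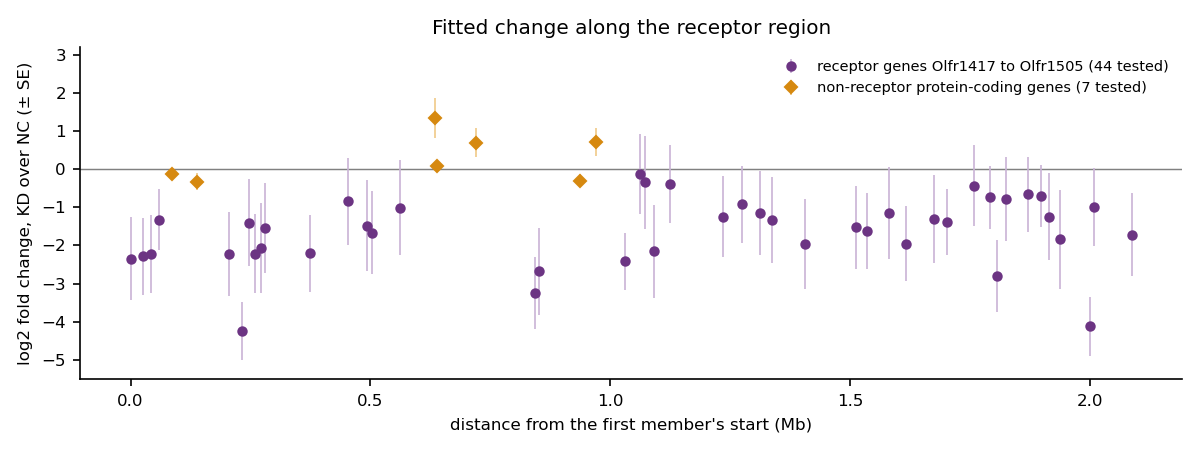
Fitted log2 fold change of KD over NC (± SE) against the distance in Mb from the start of the first member, for 44 tested receptor genes (circles) and 7 tested non-receptor protein-coding genes (diamonds). All circles lie below 0, from -4.23 to -0.12, and the diamonds lie between -0.33 and 1.34.

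KD-1 and KD-3 differed from each other in which members they held, more than the controls did. Over members with at least 10 counts in either library (n = 42), the log2 ratio of KD-3 to KD-1 had an SD of 1.39, and 31 members were higher in KD-3. The SD between NC libraries was 0.588, 0.799 and 0.745. Spearman's correlation of member levels was 0.80 for KD-1 with KD-3, beside 0.914, 0.865 and 0.864 for the pairs of NC libraries (47 members with at least 30 counts in all, a description across genes that share their libraries). KD-1 and KD-3 held fewer member counts than any control, and the part of depth in the wider spread was not tested. Among other class II receptors the SD was 1.31 between KD-1 and KD-3, beside 0.978 to 1.06 between NC libraries. Over all tested genes the order was the other way, at 0.694 against 0.747 to 1.28.

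The members with the widest gaps were picked after the values were seen. Olfr1469 had 1 count in KD-1 (95% Poisson interval 0.03 to 5.57) and 30 in KD-3 (20.2 to 42.8). Olfr1495 had 0 and 12, Olfr1451 had 0 and 11, and Olfr1505 had 2 and 21. In the other direction Olfr1426 had 79 counts in KD-1 (62.6 to 98.5) and 26 in KD-3 (17.0 to 38.1), Olfr1443 had 19 and 7, and Olfr1461 had 57 and 30. Of these 7 members, the intervals of Olfr1443 overlap between the libraries (11.4 to 29.7 and 2.81 to 14.4), and those of the other members do not. Olfr1448 had 9 counts in KD-1 and 67 in KD-3, against 123, 148 and 71 in NC. Olfr1426 and Olfr1505 have near-identical partners (Olfr1425, 95.7%, and Olfr1502, 97.5%), which leaves their counts uncertain.

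**Figure D5:**
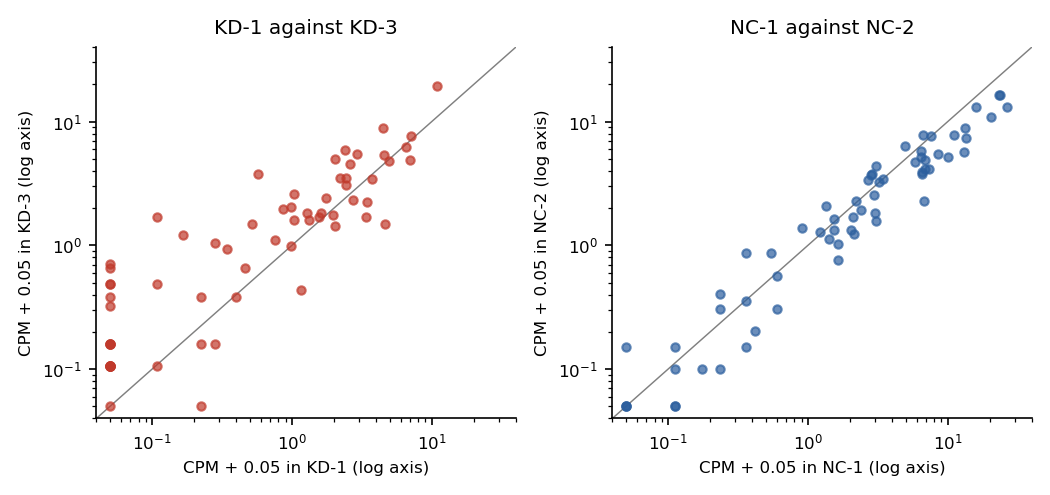
Level of each member (CPM + 0.05, both axes logarithmic) in KD-1 against KD-3 (left, red) and in NC-1 against NC-2 (right, blue), with the line of equal level. The KD points scatter more widely (SD of the log2 ratio 1.39) than the NC points shown (0.588, with 0.799 and 0.745 for the NC pairs not drawn), and members with 0 counts in KD-1 line up at the left edge.

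The 20 members below the filter on low counts had 1 to 73 counts over all 6 libraries. They summed to 71 counts in KD and 269 in NC. Of these, 13 had more counts in NC, 5 had more in KD and 2 had equal numbers. Olfr1496 had the most counts among them, 9 in KD and 64 in NC. Over all 64 members 25 had every KD value below every NC value, 5 of them below the filter. Among tested genes 18.6% met that rule, and the share over all genes of the table was not computed.

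Genes that act downstream of the receptors had fitted changes mostly in the same direction. In the odour transduction list (the G protein subunits, adenylyl cyclase, channels and regulators of the cilia) 19 of 20 tested genes were below 0 and 1 above. The median change was -1.70 on the log2 scale (-1.17 without KD-2). None passed edgeR's adjusted threshold, 6 were lower at an unadjusted p under 0.05 (9.25% of all tested genes were), and 17 had all KD values below NC (18.6% of all tested genes). Cfap69, a ciliary protein that shapes the kinetics of the odour response, had 2327, 937 and 2436 counts in KD against 6818, 6500 and 4355 (-1.54 ± 0.33, edgeR adjusted p = 0.276). Camk2d (-1.23 ± 0.41) and the sodium-calcium exchanger gene Slc8a1 (-1.94 ± 0.70) had the same adjusted p. Omp, part of this list, was at -1.77 ± 1.36 (edgeR adjusted p = 0.448).

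In the list of factors for receptor choice and transport 18 of 21 tested genes were below 0 and 3 above, with a median of -0.96 (-0.65 without KD-2). None passed the adjusted threshold, 4 were lower and 1 higher at an unadjusted p under 0.05 (9.25% of all tested genes were lower), and 12 had all KD values below NC (18.6% of all tested genes). Tshz1, a zinc-finger factor, had 770, 457 and 902 counts against 1509, 1878 and 1125 (-0.96 ± 0.22). Bcl11b, known to restrain class I receptor choice in class II neurons, was at -0.99 ± 0.35, and the receptor-expression-enhancing protein gene Reep1 at -1.55 ± 0.62. Lbr, the lamin B receptor, whose absence from mature neurons lets receptor genes gather in the nucleus, was higher in KD, with 1007, 746 and 703 counts against 422, 715 and 678 (0.62 ± 0.23). In edgeR all 4 had an adjusted p of 0.276. Beside Lbr, the summed markers of horizontal basal cells were higher in all KD libraries, and their part in that value was not tested.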

How the data were processed

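The authors deposited 1 table of raw counts per gene in 6 libraries, with a signal column (their mean of normalized counts), a log2 fold change and an unadjusted p-value per gene, per the file headers. The last 2 were used only where the authors' deposited table is named, and the mean was not used. The submitters' processing notes name HISAT2 2.1.0, Bowtie2 2.2.3, TopHat2, HTSeq 0.6.0, DESeq, DESeq2 and the build GRCm38, without their roles. The strand setting and the handling of reads that match several genes are not stated in the labels or headers. Columns headed as controls were matched to the NC titles by number.

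All genes were fitted with edgeR 4.0.16 in R 4.3.3 (TMM, default filter on low counts, quasi-likelihood test, two-sided, no covariate). Benjamini-Hochberg adjustment ran over 18444 genes with a threshold of 0.05. The biological coefficient of variation was 40.9%. DESeq2 1.42.0 was run on the same genes. The scripts were tested on simulated data. A fitted fold change of a gene at 0 counts in a library depends on edgeR's prior count. Symbols and positions come from GENCODE for GRCm38 and sequences from RefSeq (GRCm38.p6). Identity was computed on coding nucleotides, and protein sequences were not used here.

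Named are the 12 members with the highest mean CPM; the 8 with the smallest p among tested members whose groups do not overlap, with at least 0.5 CPM; tested members above 0 (none); those with 30 or more NC and 3 or fewer KD counts; those past the adjusted threshold (none); those with counts in KD-2; Omp, Mir200a and Mir200b; and, per pathway list, the 4 genes with the smallest p, of which 1 is not reported here. Other genes were picked for their values. The members and lists were chosen with earlier results of these data known. Exact intervals at 95% and floors of 3 counts cover counting error only.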

Additional observations from a re-analysis of the deposited data

How the results depend on the processing

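No fitted value of the 22 tested members named by rule changed direction in any of 242 values under the alternatives, which exchanged the normalization, the filter, the test or left out libraries. Among the other tested members Olfr1446, Olfr1447, Olfr1450 and Olfr1484 turned above 0 without KD-2 (0.46, 0.25, 0.19 and 0.16). The 8 members named for the smallest p were required to have groups that do not overlap, so leaving out libraries could hardly turn their sign. The 3 named values past the threshold came from DESeq2. Counts of calls did move. DESeq2 called 347 genes in all, 3 of them members, and edgeR without KD-2 and NC-1 called 3 genes, none a member, against 0 in edgeR with all libraries. The 5 members lower at an unadjusted p became 15 without the filter, 12 in DESeq2 and 15 without KD-2 and NC-1. Leaving out 1 library each gave 4 (without NC-2) to 17 (without KD-2), and 13 without KD-3. Of all tested genes 9.25% were lower by that rule in the main fit and 8.69% without KD-2. That share was not computed for the other settings. The number of members tested also changed, from 44 in the main fit to 47 without KD-2. The median log2 fold change of the members ranged from -2.33 (without KD-3) to -0.94 (without KD-2) and was -0.67 without KD-2 and NC-1. The difference in share of receptor counts ranged from -2.40 percentage points (without KD-3) to 0.41 (without KD-2), where its sign turned. The difference per 1000 reference counts turned to -5.00 with 5 other neuronal genes in place of Omp (exact permutation p = 1), on the scale of that other reference. The median difference from other class II receptors ranged from -0.082 (without KD-3) to 0.17 (without KD-2), and turned also without NC-1 (-0.02). The cause was not tested.

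The groups share replicate numbers, but deviations of same-numbered libraries correlated at 0.305, 0.101 and -0.257, and only 1 of 3 numbers correlated best with its own, so the numbers were not taken as pairs. With the replicate block the members' median was -2.18, 5 members were lower at an unadjusted p and 0 passed adjustment, in the members and in all genes. Depth limits members under about 10 counts, among them all 64 in KD-2.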

Other observations

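The receptors with the most counts in KD-2 differed in how they stood in the other libraries. Olfr56 had 261, 186 and 127 counts in KD and 78, 115 and 109 in NC, Olfr920 had 98, 103 and 90 against 55, 95 and 86, and Olfr558 had 36, 25 and 31 against 35, 38 and 31. Olfr1372-ps1 had 447, 773 and 636 against 1114, 1949 and 1607. Olfr60 had 223, 36 and 216 against 713, 589 and 272. Without these 5 genes the other receptors had 285 counts in KD-2, and 1000 of them had none. The genes were picked for their counts in KD-2.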
